A study of Mus musculus with 4 samples.

Results

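The insulin-like growth factor (IGF) genes described here are the ligands Igf1 and Igf2, the receptor Igf1r and the binding proteins Igfbp2, Igfbp3, Igfbp4, Igfbp5, Igfbp6 and Igfbp7. They were chosen by gene symbol, and all 9 were found among the 17958 genes measured by RNA sequencing of mouse epidermis. The 2 genotypes were compared, with 2 libraries each. The first is labelled IL-36Ra-cKO in the sample names, a conditional knockout, and "IL-36Ra knockdown" in the genotype field. The second is labelled IL-36Rafl/fl, with the genotype field WT, and carries the floxed alleles without a stated deletion. IL-36Ra is the usual name of the IL-36 receptor antagonist. Neither group received a treatment, and the labels give no Cre driver, deleted exon, age, sex or strain, nor whether animals were pooled. They also do not state that replicates were separate mice, so p-values measure only the spread between these libraries, which may be technical.

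IGF-I and IGF-II are secreted peptides that activate the receptor tyrosine kinase encoded by Igf1r, which signals through insulin receptor substrates to PI3K, AKT and mTOR. The binding proteins hold the ligands outside the cell, prolong their life or keep them from the receptor, and release them when cut by proteases such as pappalysin. In skin, IGF-I comes largely from dermal fibroblasts, whereas the receptor is carried by keratinocytes of the epidermis and hair follicle.

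Facts of the libraries that touch these genes come first. Totals ran from 14622791 to 16490602 estimated reads per library. The gene that the label names, listed under its older symbol Il1f5 (Il36rn), was read in all 4 libraries, at 171 and 135 TPM (a per-length level that sums to the same total in each library) in cKO and 234 and 179 TPM in fl/fl epidermis, so the counts do not check the genotype. Across all genes tested 4 passed an adjusted p of 0.05, all higher in cKO: the Y-linked Uty, Eif2s3y and Ddx3y, and Mup22, a member of a family of near-identical urinary protein genes. The 4 Y-linked markers summed to 124 and 154 TPM in cKO but 0.98 and 1.23 TPM in fl/fl libraries, and sex and genotype label therefore cannot be told apart. Basal keratinocyte markers were abundant everywhere (13717 to 16025 summed TPM over 6 genes), yet 12 dermal fibroblast markers were also read at 1510 and 2436 TPM in cKO and 1326 and 1704 TPM in fl/fl libraries, none at 0 counts. The samples thus held message of cells other than the labelled keratinocytes. In such bulk tissue, fewer cells of a type and less RNA per cell cannot be told apart.

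The 3 genes with the smallest p in the genotype comparison were Igfbp6, Igfbp3 and Igf1r. The 250 bases before the RefSeq start of each (build GRCm38.p6, an older build than the authors' GRCm39, 5′ to 3′ on the gene's strand) are shown because these genes carry the differences described below. Capitals mark exact matches, on either strand, to the letters of the TATA box (TATAAA), of the GC box (GGGCGG), of the AP-1 site (TGANTCA) or of the FOXO site (GTAAACA), and no match overlapped another. They lie at chr15:102143936-102144185 on the plus strand, chr11:7213924-7214173 on the minus strand and chr7:67952007-67952256 on the plus strand.
Igfbp6: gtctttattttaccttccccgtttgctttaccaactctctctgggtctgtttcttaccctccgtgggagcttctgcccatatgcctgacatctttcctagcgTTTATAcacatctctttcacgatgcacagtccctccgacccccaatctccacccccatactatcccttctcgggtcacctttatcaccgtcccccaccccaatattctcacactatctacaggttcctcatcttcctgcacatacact
Igfbp3: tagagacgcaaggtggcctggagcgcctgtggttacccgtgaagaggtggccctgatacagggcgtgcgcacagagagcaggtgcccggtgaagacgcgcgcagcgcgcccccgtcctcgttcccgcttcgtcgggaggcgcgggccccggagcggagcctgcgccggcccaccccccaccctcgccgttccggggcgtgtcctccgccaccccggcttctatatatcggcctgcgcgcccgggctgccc
Igf1r: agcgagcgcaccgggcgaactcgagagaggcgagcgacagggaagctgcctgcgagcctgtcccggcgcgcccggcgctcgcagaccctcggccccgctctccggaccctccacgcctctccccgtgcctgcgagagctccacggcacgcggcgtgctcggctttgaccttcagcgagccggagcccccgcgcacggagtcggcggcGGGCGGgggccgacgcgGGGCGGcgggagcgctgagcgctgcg
The Igfbp6 window had a G and C content of 49.6% and held a TATA box match on the opposite strand, beginning 148 bases before the start. The Igf1r window was the richest in G and C of the 3, at 77.6%, with GC box matches beginning 43 and 26 bases before the start. The Igfbp3 window, at 73.2% G and C, held none of the 4 motifs. Among all 32851 windows of the same length, 12.4% held a TATA box match, 32.7% a GC box match, 6.75% an AP-1 match and 3.17% a FOXO match. A match describes the letters in the window and is no evidence of binding.

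None of the 9 genes passed an adjusted p of 0.05 (edgeR's quasi-likelihood test, Benjamini-Hochberg adjustment over 14459 genes tested), a threshold that 0.0277% of all genes passed. At an unadjusted p of 0.05, 4 of 9 passed, against 32.1% of all genes: Igf2, Igfbp3 and Igfbp6 were higher in cKO (3 of 9, against 16.5%) and Igf1r was lower (1 of 9, against 15.6%). At an adjusted p of 0.1 the members passing were Igfbp3 and Igfbp6 on the higher side (2 of 9, against 8.53% of genes) and Igf1r on the lower (1 of 9, against 6.69%), in all 3 of 9 against 15.2%. DESeq2 passed the same 3 members at 0.05, where it called 17.8% of its genes. All 9 members passed the filter on low counts. The median log2 fold change, cKO over fl/fl here and throughout, was -0.13 for the members and 0.00 for all genes, and 3 members had positive and 6 negative values. The CPM values (counts scaled to the library total with TMM factors) of both groups did not overlap for 6 of 9 members, against 67.7% of all genes, with 3 members higher (34.8% of all genes) and 3 lower (32.9%) in cKO. Those shares lie near the background and are not a result about the members.

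**Figure D1:**
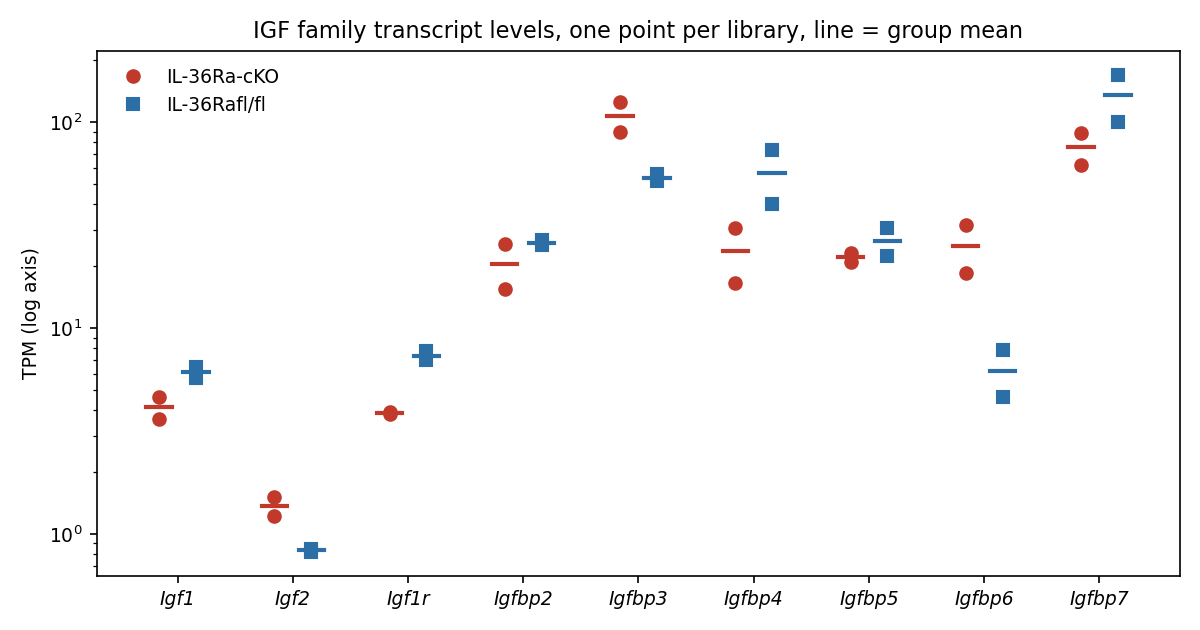
Transcript level in TPM (log axis) of the 9 IGF genes, with 1 point per library and a line at the group mean, IL-36Ra-cKO left and IL-36Rafl/fl right for each gene. Igfbp6 (18.4 and 31.6 TPM in cKO, 4.65 and 7.79 TPM in fl/fl) and Igfbp3 lie higher in both cKO libraries, Igf1r lies lower in both, and Igf2 is the lowest gene of all.

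The ligands were scarce. Igf1, which encodes the main postnatal IGF, had 3.61 and 4.65 TPM in cKO epidermis, against 6.48 and 5.75 TPM in fl/fl epidermis. Both cKO values lay below both fl/fl values. The log2 fold change was -0.40 ± 0.19 (SE, adjusted p = 0.202 by edgeR), with a 95% interval of the fold from 0.542 to 1.06, and it was -0.57 without cKO replicate 2 and -0.25 without cKO replicate 1. Igf2, the growth factor of fetal tissue that is imprinted and largely silenced after birth in mice, had 1.22 and 1.51 TPM in cKO and 0.82 and 0.85 TPM in fl/fl epidermis. These values rest on 39 and 42 reads in cKO and 20 and 24 reads in fl/fl libraries, and since strand is not stated, reads of Igf2 and of its antisense partner cannot be told apart. Its log2 fold change was 0.97 ± 0.32 (SE, adjusted p = 0.126 by edgeR), and it was 0.64 on log2(TPM + 0.1) and 0.36 on log2(TPM + 1). Igf1 exceeded Igf2 in every library, by a TPM ratio of 2.96 and 3.08 in cKO and 7.90 and 6.76 in fl/fl libraries. Their sum was 4.83 and 6.16 TPM in cKO and 7.30 and 6.60 TPM in fl/fl libraries, without overlap.

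The receptor message was lower in cKO epidermis. Igf1r had 3.93 and 3.84 TPM in cKO and 6.97 and 7.72 TPM in fl/fl epidermis. The replicates of each group lay close together and the groups were apart. The fold was 0.586 (95% interval 0.442 to 0.777) and the log2 fold change -0.77 ± 0.16 (SE, adjusted p = 0.0795 by edgeR). Leaving out any 1 library kept it between -0.88 and -0.67. It thus missed the threshold while showing the smallest SE among the 9 members.

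Igfbp6 differed most. Its protein prefers IGF-II over IGF-I. It had 18.4 and 31.6 TPM in cKO epidermis, against 4.65 and 7.79 TPM in fl/fl epidermis, or 243 and 402 reads against 50 and 102 reads. The lower cKO library still stood above the higher fl/fl library, although replicates of each group differed by 0.68 and 0.78 on the log2 CPM scale, more than the median gene (0.27 in cKO and 0.24 in fl/fl). The fold was 4.59 (95% interval 2.23 to 9.44) and the log2 fold change 2.20 ± 0.40 (SE, adjusted p = 0.074 by edgeR). Without any 1 library it ran from 1.82 to 2.64, and it passed the threshold without cKO replicate 1 (2.50), where 5.97% of all genes did.

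Igfbp3 was the most abundant member in cKO epidermis. It encodes the main carrier of IGFs in serum and is known from basal keratinocytes of human epidermis. It had 89.5 and 126 TPM in cKO, against 56.1 and 51.6 TPM in fl/fl epidermis. The fl/fl replicates were nearly equal and both cKO values lay above them. The fold was 2.27 (95% interval 1.53 to 3.37) and the log2 fold change 1.18 ± 0.22 (SE, adjusted p = 0.074 by edgeR), from 0.95 without cKO replicate 2 to 1.38 without cKO replicate 1. With no scaling factors beyond the library total, Igfbp3 and Igfbp6 passed the threshold, as did 9.4% of all genes.

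Igfbp4 and Igfbp7 had lower averages in cKO but wide spreads. Igfbp4, whose protein inhibits IGF action until pappalysin cuts it, had 30.7 and 16.6 TPM in cKO and 40.2 and 73.5 TPM in fl/fl epidermis. The groups did not overlap, yet replicates differed by 0.95 in cKO and 0.93 in fl/fl on the log2 CPM scale. Its log2 fold change was -1.08 ± 0.45 (SE, adjusted p = 0.177 by edgeR). It was -1.63 when cKO replicate 1 was left out and -0.56 when fl/fl replicate 2 was. Igfbp7, a low-affinity binding protein made by blood vessels, had 89.1 and 61.8 TPM in cKO and 100 and 170 TPM in fl/fl epidermis. In CPM the groups overlapped. Its log2 fold change was -0.61 ± 0.36 (SE, adjusted p = 0.288 by edgeR) and came to -0.16 without fl/fl replicate 2.

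Igfbp2 and Igfbp5 showed the smallest differences. Igfbp2, whose protein can also bind integrins, averaged 20.5 ± 7.19 TPM in cKO and 26.0 ± 1.12 TPM in fl/fl epidermis (SD, n = 2 each). Its log2 fold change was -0.13 ± 0.26 (SE), with an interval of the fold from 0.567 to 1.47, and turned to 0.11 without cKO replicate 1. Igfbp5, whose protein binds extracellular matrix and is cut by pappalysins, averaged 22.1 ± 1.53 TPM in cKO and 26.5 ± 5.90 TPM in fl/fl epidermis (SD, n = 2 each). Its log2 fold change was -0.10 ± 0.23 (SE), with an interval of the fold from 0.615 to 1.42, and turned to 0.17 without fl/fl replicate 2. Neither interval shows the genotypes to be alike for these genes.

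**Figure D2:**
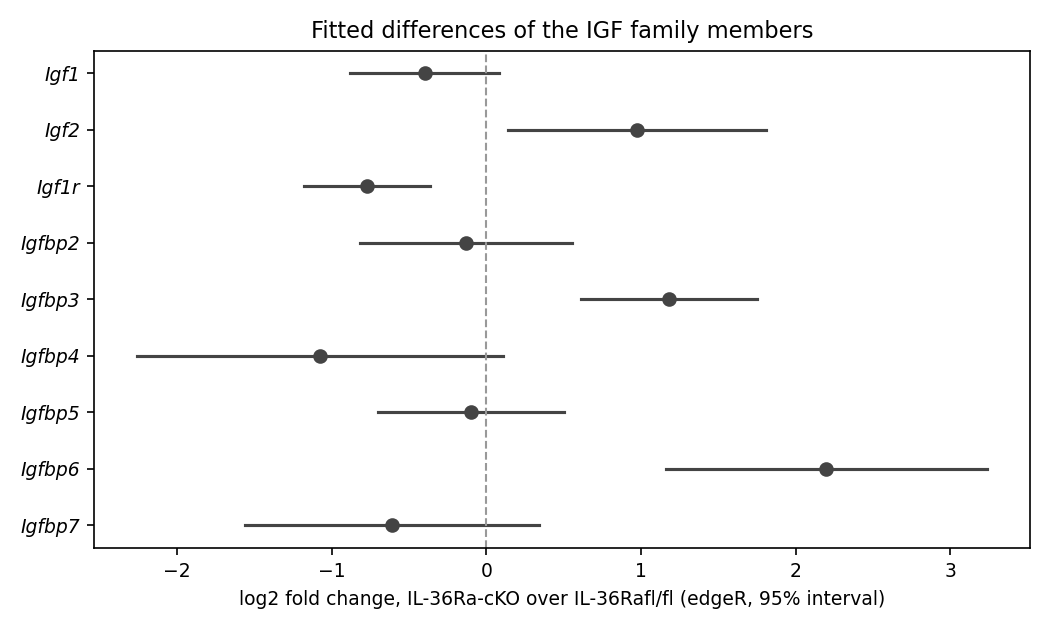
Log2 fold change of each IGF gene, IL-36Ra-cKO over IL-36Rafl/fl, as a point with its 95% interval from the edgeR fit. The intervals of Igf2, Igf1r, Igfbp3 and Igfbp6 leave out 0, those of the other 5 genes include it, and none of the 9 passed an adjusted p of 0.05.

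The order of the members differed between the genotypes. By mean TPM in cKO epidermis, Igfbp3 (108 ± 25.8) stood above Igfbp7 (75.5 ± 19.3), with ranges 0.41 TPM apart, and Igfbp6, Igfbp4, Igfbp5 and Igfbp2 followed with overlapping ranges (means from 25.0 TPM down to 20.5 TPM). In fl/fl epidermis Igfbp7 (135 ± 49.7) led, Igfbp4 (56.9 ± 23.6) and Igfbp3 (53.8 ± 3.21) overlapped (SD, n = 2 each), and Igfbp6 (6.22 ± 2.22) stood beside Igf1r (7.35 ± 0.53) and Igf1 (6.12 ± 0.52). Igf2 was the lowest in every library. Igfbp6 ranked 5 and 3 of the 9 in the cKO libraries and 8 and 6 in the fl/fl libraries. These ranks are a description, without a test.

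The summed message of the 6 binding proteins overlapped between genotypes, while its make-up differed. The sum was 264 and 285 TPM in cKO and 248 and 361 TPM in fl/fl epidermis. Igfbp3 made up 33.9% and 44.2% of it in cKO, against 22.6% and 14.3% in fl/fl libraries. Igfbp6 made up 6.98% and 11.1% in cKO, against 1.87% and 2.16% in fl/fl libraries. Igfbp3 and Igfbp6 together thus held 48.1% ± 10.2 in cKO and 20.5% ± 5.65 in fl/fl epidermis (SD, n = 2 each). Igfbp4 and Igfbp7 together held 36.4% ± 12.6 in cKO and 62.0% ± 7.91 in fl/fl epidermis (SD, n = 2 each). These pairs join genes by the direction of their own differences here, so their contrast is no separate result. Shares of a library add up to the whole, so larger shares of some genes mean smaller shares of others. The share of Igfbp5 was 7.95% and 8.14% in cKO and 8.97% and 8.49% in fl/fl libraries, close but without overlap. Only the share of Igfbp2 overlapped between the groups, so standing apart on this scale was not particular to Igfbp3 and Igfbp6. Per 100 TPM of binding protein message there were 1.37 and 1.63 TPM of Igf1 in cKO and 2.61 and 1.59 TPM in fl/fl libraries. Those ratios overlapped (p = 0.667, two-sided exact permutation test, which with 2 against 2 cannot go below 0.333).

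**Figure D3:**
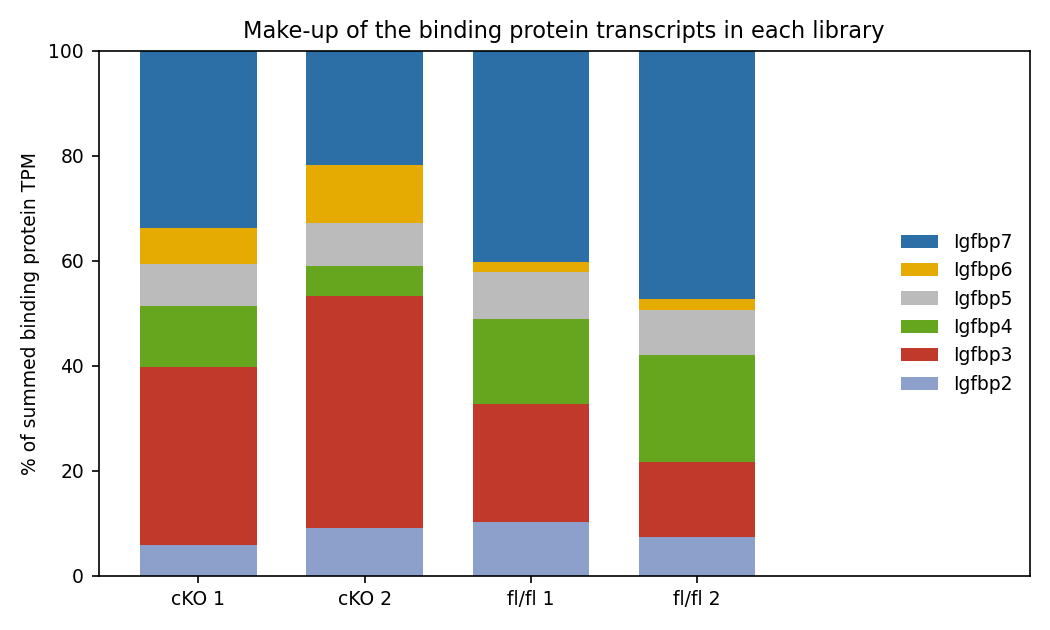
Percent of the summed binding protein TPM held by each of the 6 genes, as stacked bars, 1 bar per library. Igfbp3 and Igfbp6 take a larger part in both cKO libraries (40.9% and 55.3% together) than in both fl/fl libraries (24.4% and 16.5%), and Igfbp4 and Igfbp7 a smaller one. The pairs join genes by the direction of their own differences, and the shares in a bar add up to the whole.

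Several marker lists stood apart by genotype label or in 1 library. Hair shaft and inner root sheath genes (17 of 17 in the table) summed to 3331 and 15.2 TPM in cKO and 10568 and 10866 TPM in fl/fl libraries, with 9 of them at 0 counts in cKO replicate 2. Skeletal muscle genes (12 of 12) summed to 63.2 and 1743 TPM in cKO and 122 and 150 TPM in fl/fl libraries. Smooth muscle and pericyte genes (6 of 6) summed to 79.4 and 64.7 TPM in cKO and 120 and 161 TPM in fl/fl libraries. Myh11 alone of them went the other way, with 7.20 and 6.07 TPM in cKO and 3.42 and 4.12 TPM in fl/fl libraries (log2 fold change 0.98). Pdgfrb hardly differed (-0.02). Melanocyte genes (5 of 5) summed to 184 and 11.3 TPM in cKO and 473 and 454 TPM in fl/fl libraries. On the higher side, immediate early and heat shock genes (10 of 10, which also respond to tissue handling) summed to 2053 and 1124 TPM in cKO and 699 and 757 TPM in fl/fl libraries, and 8 of them passed an unadjusted p of 0.05 (against 16.5% of all genes higher). Suprabasal keratinocyte genes (6 of 6) summed to 34239 and 34331 TPM in cKO and 24839 and 20776 TPM in fl/fl libraries. Most of that sum was Krtdap, at 23000 and 25676 TPM in cKO and 14426 and 14746 TPM in fl/fl libraries. Flg (-1.17) and Krt1 (-0.03) had negative log2 fold changes, and the rest of the list positive ones. T cell genes (4 of the 5 listed were in the table) summed to 52.9 and 59.8 TPM in cKO and 21.2 and 19.5 TPM in fl/fl libraries. The endothelial sums overlapped, at 60.7 and 74.9 TPM in cKO and 54.8 and 62.9 TPM in fl/fl libraries. The part of these cells and responses in the IGF gene differences was not tested. The cKO library with the high muscle sum, replicate 2, also had the lowest hair sum and the highest dermal fibroblast sum (2436 TPM) of all libraries. That library was the higher of its group for Igfbp3 and Igfbp6, and without it their log2 fold changes were 0.95 and 1.82.

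**Figure D4:**
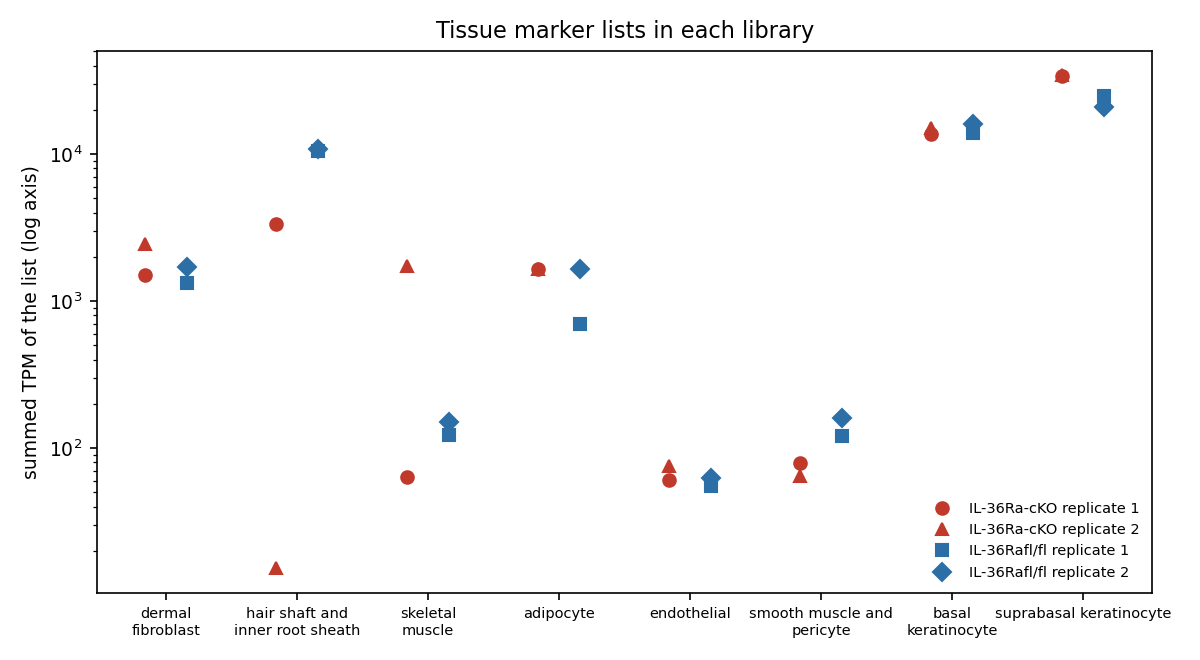
Summed TPM (log axis) of 8 tissue marker lists, with 1 point per library, IL-36Ra-cKO left and IL-36Rafl/fl right for each list. Hair genes are low in cKO replicate 2 (15.2 TPM), muscle genes are high there (1743 TPM), and the dermal fibroblast and basal keratinocyte sums overlap between the groups. Single fibroblast genes went both ways, such as Col1a1 (log2 fold change 1.74) and Pdgfra (-1.73). Of the 12, 2 were higher and 2 lower in cKO at an unadjusted p of 0.05 (edgeR), against 16.5% and 15.6% of all genes.

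The members were also set against marker message of the same library. Genes of the fibroblast list went both ways, from Col1a1 (log2 fold change 1.74) to Pdgfra (-1.73). Their sum is therefore no steady measure of those cells. Per 1000 TPM of the 12 fibroblast markers, Igfbp6 had 12.2 and 13.0 TPM in cKO and 3.51 and 4.57 TPM in fl/fl libraries. Igfbp3 had 59.3 and 51.7 TPM in cKO and 42.3 and 30.3 TPM in fl/fl libraries on that scale. Igf1 had 2.39 and 1.91 TPM in cKO and 4.89 and 3.37 TPM in fl/fl libraries. Per 1000 TPM of the 6 basal keratinocyte markers, Igf1r had 0.287 and 0.254 TPM in cKO and 0.501 and 0.482 TPM in fl/fl libraries. Non-overlap was not particular to these genes. On the fibroblast scale every member was apart between the groups, Igfbp2, Igfbp5 and Igfbp7 included. On the keratinocyte scale every member but Igfbp2 was. For the genes named here the groups did not overlap on these scales. Per 1000 TPM of the 12 skeletal muscle markers they did, with 292 and 18.1 TPM of Igfbp6 in cKO and 38.0 and 51.9 TPM in fl/fl libraries, and 1416 and 72.2 TPM of Igfbp3 in cKO and 459 and 343 TPM in fl/fl libraries. Every member overlapped on the muscle scale, where cKO replicate 2 was the lowest library.

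Among genes outside the family with a mean of at least 10 CPM (10101 genes), those most like each member were taken by the Euclidean distance of log2 CPM, centred on the gene's mean, over the 4 libraries. With 4 points per gene, near matches are frequent for plain patterns: 518 genes lay within 0.25 of Igf1, 298 within 0.25 of Igf2, and 107 within 0.25 of Igf1r. Igfbp7, Igfbp4 and Igfbp6 had fewer near matches, with 3, 2 and 1 genes within 0.25. Profiles were centred but not scaled, so these counts also depend on the size of a gene's differences. Igfbp7 lay nearest to Acta2, the smooth muscle actin (distance 0.121), and to Mgp, an inhibitor of calcification (0.133). Igfbp4 lay nearest to Plet1 (0.173) and to Sprr2h (0.234), which belongs to a family of similar genes whose reads may be shared. Igfbp6 lay nearest to Ctla2a (0.133) and then to Slc24a3 (0.366). Igfbp5 lay nearest to the endothelial marker Pecam1 (0.0453) and to Uap1 (0.0533), among 169 genes within 0.25. Igfbp3 lay nearest to the calcium channel gene Cacna1d (0.057) and to the glutathione transferase gene Gstt3 (0.0645), among 54. The nearest to Igf1r were Dync2h1 (0.0355) and Engase (0.0595), to Igf1 Cnot2 (0.0343) and Irx2 (0.0388), to Igf2 Traf2 (0.0034) and Osbpl5 (0.0578), and to Igfbp2 Vhl (0.0503) and Tmem251 (0.0681).

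The rest of the pathway was read in 6 lists of 58 genes, of which 55 were in the table and 50 were tested. None of the 50 passed an adjusted p of 0.05 (edgeR), an unadjusted p of 0.05 was passed by 3 on the higher and 10 on the lower side (26% in all, against 32.1% of all genes), and DESeq2 at an adjusted p of 0.05 passed 8 of the 50 (Pappa, Stc1, Adam9, Adam12, Irs3, Pik3r3, Tsc2 and Gsk3b), or 16%, against 17.8% of all its genes. The median log2 fold change was -0.26, against 0.00 for all genes. The binding protein gene Igfbp1 was read once, in an fl/fl library, and was not tested.

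Proteases that cut the binding proteins, and inhibitors of those proteases, had the lowest median of the 6 lists. Of 7 tested, 4 were lower and none higher at an unadjusted p of 0.05 (against 15.6% and 16.5% of all genes), with a median log2 fold change of -1.16. Pappa, which encodes pappalysin, the protease of Igfbp4 and Igfbp5, had 0.43 and 0.18 TPM in cKO and 2.67 and 2.12 TPM in fl/fl epidermis. That is 58 and 24 reads against 310 and 301 reads, with a log2 fold change of -2.80 ± 0.47 (SE, adjusted p = 0.0722 by edgeR). It was -3.60 without cKO replicate 1, -2.29 without cKO replicate 2 and -1.38 on log2(TPM + 1). Stc1, whose stanniocalcin product inhibits pappalysin, had 0.66 and 1.15 TPM in cKO and 3.75 and 3.91 TPM in fl/fl epidermis, a log2 fold change of -1.91 ± 0.34 (SE, adjusted p = 0.074 by edgeR), which was -1.35 on log2(TPM + 1). A second stanniocalcin gene, Stc2, lay on the other side, with 1.70 and 3.36 TPM in cKO and 1.60 and 1.72 TPM in fl/fl epidermis (0.79 ± 0.43, SE, adjusted p = 0.253 by edgeR). Htra1, the most abundant gene of the list and a secreted serine protease, had 58.7 and 88.0 TPM in cKO and 50.2 and 62.6 TPM in fl/fl epidermis (0.56 ± 0.26, SE, adjusted p = 0.198 by edgeR). Without cKO replicate 2 the values were 0.26 for Stc2 and 0.28 for Htra1, both named after their values were seen. Adam9, a membrane metalloprotease, had 14.2 and 16.9 TPM in cKO and 47.8 and 30.7 TPM in fl/fl epidermis (-1.16 ± 0.25, SE). Adam12, a protease of Igfbp3 and Igfbp5, named after its values were seen, had 0.26 and 0.12 TPM in cKO and 0.96 and 2.35 TPM in fl/fl epidermis (-2.97 ± 0.66, SE), from -3.67 to -2.17 with 1 library left out. The hair shaft and root sheath markers ran the same way (3331 and 15.2 TPM in cKO, 10568 and 10866 TPM in fl/fl libraries), and their part in this was not tested.

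Among other receptors and carriers 1 of 4 tested genes passed an unadjusted p of 0.05. Igf2r, the receptor that clears IGF-II, had 5.36 and 3.67 TPM in cKO and 7.92 and 8.58 TPM in fl/fl epidermis, a log2 fold change of -0.71 ± 0.24 (SE, adjusted p = 0.132 by edgeR), which was -1.03 without cKO replicate 1 and -0.44 without cKO replicate 2. Insr, the insulin receptor, had 4.97 and 8.36 TPM in cKO and 11.5 and 7.43 TPM in fl/fl epidermis, so its groups overlapped. Ghr, the growth hormone receptor, had 26.9 and 42.3 TPM in cKO and 46.3 and 38.1 TPM in fl/fl epidermis and overlapped too. The list's median was -0.33.

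Receptor substrates and the PI3K arm went both ways. Among 9 substrates and adaptors tested, 1 was higher and 1 lower at an unadjusted p of 0.05, with a median of -0.12. Irs3, a substrate known from rodent fat cells, had 21 and 26 reads in cKO and 2 and 6 reads in fl/fl libraries. Its log2 fold change was 2.63 ± 0.57 (SE), from 2.14 without fl/fl replicate 1 to 3.44 without fl/fl replicate 2. The 8 adipocyte markers summed to 1650 and 1645 TPM in cKO and 703 and 1646 TPM in fl/fl libraries, and their part was not tested. Sos1, the exchange factor that links receptors to Ras, had 5.72 and 7.06 TPM in cKO and 17.6 and 9.51 TPM in fl/fl epidermis (-0.94 ± 0.31, SE), and its difference was -0.48 without fl/fl replicate 1. Irs2, the third by p, stood at 3.56 and 2.50 TPM in cKO and 3.96 and 4.35 TPM in fl/fl epidermis, with a log2 fold change of -0.29 ± 0.25 (SE).

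In the PI3K, AKT and mTOR list an unadjusted p of 0.05 was passed by 2 higher and 3 lower genes of 20 tested, with a median of -0.15. Pik3r3, a regulatory subunit of PI3K, had 4.89 and 3.70 TPM in cKO and 14.7 and 12.1 TPM in fl/fl epidermis. Its log2 fold change was -1.47 ± 0.22 (SE, adjusted p = 0.0678 by edgeR). Its relative Pik3r2 stood on the other side, at 27.9 and 25.8 TPM in cKO and 21.1 and 19.6 TPM in fl/fl epidermis (0.58 ± 0.15, SE). Tsc2, a brake on mTOR, had 17.7 and 17.1 TPM in cKO and 12.2 and 12.3 TPM in fl/fl epidermis (0.67 ± 0.14, SE, adjusted p = 0.0818 by edgeR). The kinase gene Gsk3b, named after its values were seen, was also on the lower side (-0.61 ± 0.16, SE).

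Of 8 FOXO factors and FOXO or stress targets tested, 1 was lower and none higher at an unadjusted p of 0.05, with a median of -0.31. Sesn3, a sestrin induced by FOXO factors, had 2.46 and 2.66 TPM in cKO and 4.66 and 5.12 TPM in fl/fl epidermis (-0.75 ± 0.25, SE, adjusted p = 0.133 by edgeR). Foxo1 and Foxo4, factors that AKT keeps out of the nucleus, had log2 fold changes of -0.44 ± 0.18 and 0.33 ± 0.15 (SE). Foxo1 stood at 9.17 and 10.5 TPM in cKO and 17.1 and 13.0 TPM in fl/fl epidermis. The IGF2 mRNA-binding proteins Igf2bp2 (-0.06 ± 0.48, SE) and Igf2bp3 (-0.34 ± 0.37, SE) gave no difference past either threshold, and Igf2bp2 changed sign under other scalings.

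**Figure D5:**
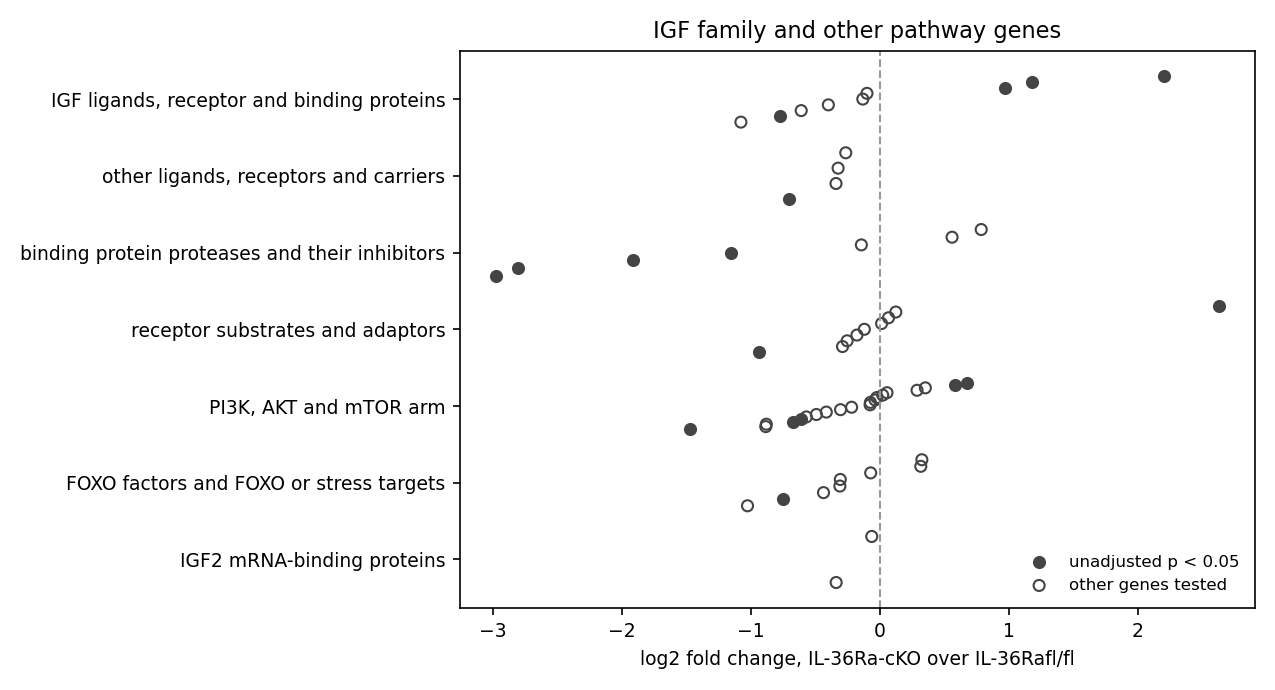
Log2 fold change, IL-36Ra-cKO over IL-36Rafl/fl, of each tested IGF family member and of each tested gene in 6 further pathway lists, with filled points where the unadjusted p was under 0.05. The protease and inhibitor list has its 4 filled points on the lower side (-2.97 to -1.16), and the largest higher value outside the family is Irs3 at 2.63.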

How the data were processed

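RNA from mouse epidermis was lysed with Trizol, enriched for polyadenylated message and sequenced as DNA nanoballs, per the labels' protocols. The submitters' processing notes name build GRCm39, RSEM 1.3.1, Bowtie2 2.3.4.3 and DESeq2 1.4.5, with no role or order. Annotation, strand setting and filters are not stated there. The authors deposited estimated counts per gene (11.0% to 13.0% of values not whole), TPM and FPKM, per the file headers. Their normalized count, a signal scaled by 1 factor per library per the file headers, was not used, nor was FPKM.

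Estimated counts were rounded and tested with edgeR 4.0.16 in R 4.3.3 (quasi-likelihood F test, TMM scaling, default expression filter, group as the only term), which left 14459 of 17958 genes. P-values were adjusted by Benjamini-Hochberg over all of them at a threshold of 0.05. The SE was the log2 fold change over the root of F. The biological coefficient of variation was 0.269. The fit was tested on simulated data. Levels between genes were compared in TPM, a per-length unit. The members, lists and tests were chosen with earlier results of these data known. Named genes were the 9 members, the labelled target, the 3 genes with the smallest p in each pathway list, and for each member the 2 genes nearest in profile. Alternatives were DESeq2 1.42.0, limma 3.58.1 (voom, and trend on log2 TPM), other scalings, filters and thresholds, the replicate number as a block, and each library left out. Protein sequences were not used here. Promoter windows are from RefSeq, and all 9 members matched. The values of 1 pathway gene are not reported here.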

Additional observations from a re-analysis of the deposited data

How the results depend on the processing

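With 2 libraries per group, precision rests on 4 values per gene. All 9 IGF members kept their sign under DESeq2, limma-voom, log2(TPM + 1), log2(TPM + 0.1), each scaling and filter, and the block. With 1 library left out, where the lone sample is assumed to vary like the other group, Igfbp2 ran from -0.43 to 0.11 and Igfbp5 from -0.34 to 0.17, and among other genes Ghr ran from -0.76 to 0.0052 and Igf2bp2 from -0.87 to 0.45. Igf2bp2 was also positive with upper-quartile factors (0.0077) and with no scaling factors (0.00086). The count of members past the threshold, 0 at an adjusted p of 0.05, was 3 with DESeq2, 2 with no scaling factors, 3 at an adjusted p of 0.1, 4 at an unadjusted p of 0.05 and 0 to 1 with a library left out. The count over all genes, 4 (all higher), was 2574 with DESeq2 (1146 higher, 1428 lower), 388 with upper-quartile factors (236 higher, 152 lower), 1359 with no scaling factors (634 higher, 725 lower), 2201 at an adjusted p of 0.1, 4641 at an unadjusted p of 0.05, and 0 to 887 with a library left out, 887 being the count without cKO replicate 1 and 0 the count without each of the others. The cause was not tested. The median of all genes moved to -0.16 on log2(TPM + 1) and -0.18 on log2(TPM + 0.1). The replicate numbers are not said to pair samples. With the replicate block 0 members and 4 genes passed, and the replicate differences of both groups correlated at -0.13 across genes. Of 135 values recomputed for the members 127 kept direction and side of the threshold, 6 passed it and 2 changed sign, and of 324 for 22 other named genes 301, 18 and 5 did. Levels, shares and nearest profiles are descriptions and were not recomputed. Igf2, at 20 to 42 reads, is limited by depth.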
